A study of Mus musculus with 12 samples.

Results

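The NR4A nuclear receptor genes Nr4a1, Nr4a2 and Nr4a3 were followed through the chromatin accessibility of mouse fat, using every ATAC-seq peak that the deposited peak tables assign to their symbols. The brown fat table assigned 15 of its 58558 peaks to them (4 to Nr4a1, 4 to Nr4a2 and 7 to Nr4a3), and that of inguinal fat gave them 11 of 39558 peaks (4, 5 and 2). ATAC-seq counts the DNA fragments that a transposase cuts from open chromatin, so that a peak with more reads was more accessible. Controls were C57BL/6 flox/flox mice with floxed alleles of BAF60a, the product of Smarcd1 and part of SWI/SNF, which remodels chromatin. AKO mice carried the same alleles and Adiponectin-Cre, which deletes BAF60a in adipocytes and leaves it in the vascular, stromal, nerve and immune cells of the whole tissue that was sampled. Brown fat came from 3 mice of each genotype, whose age and housing temperature for this assay were not given in the sources used here. Inguinal white fat came from mice of 6 to 8 months that had been acclimated to cold and kept at 10 °C for 7 days. It was pooled from 6 mice of each genotype and divided into 3 aliquots, so that p-values for inguinal fat measure the spread between aliquots and not between mice.

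Nr4a1 (also called NUR77), Nr4a2 (NURR1) and Nr4a3 (NOR1) encode orphan nuclear receptors whose activity is set mainly by how much of the protein is made. They are immediate-early genes: in adipocytes, β-adrenergic signals raise cyclic AMP, protein kinase A phosphorylates CREB, and CREB bound to short DNA elements at their promoters switches them on within minutes. Calcium signals reach Nr4a1 through MEF2 factors. The receptors bind DNA as monomers at the NBRE element, and Nr4a1 and Nr4a2 also do so as heterodimers with retinoid X receptors. In brown and beige fat they are known as genes that cold and adrenergic agonists induce.

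The promoters are shown because the TGACG core of CREB elements, drawn in capitals on either strand, stands in all 3 of them. The sequences are from RefSeq on GRCm38.p6 (mm10), where all 3 genes were matched. They read 5′ to 3′ on the strand of the gene and begin 250 bases before the RefSeq start site. The Nr4a1 promoter is chr15:101266596-101266845 on the plus strand, that of Nr4a2 is chr2:57124004-57124253 on the minus strand, and that of Nr4a3 is chr4:48045055-48045182 on the plus strand, ended 30 bases into the outermost annotated transcript.
Nr4a1: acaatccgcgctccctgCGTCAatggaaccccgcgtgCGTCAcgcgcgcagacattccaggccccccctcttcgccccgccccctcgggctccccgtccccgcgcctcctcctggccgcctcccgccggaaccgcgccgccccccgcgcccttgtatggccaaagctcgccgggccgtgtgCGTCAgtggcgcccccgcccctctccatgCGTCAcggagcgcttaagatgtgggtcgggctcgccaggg
Nr4a2: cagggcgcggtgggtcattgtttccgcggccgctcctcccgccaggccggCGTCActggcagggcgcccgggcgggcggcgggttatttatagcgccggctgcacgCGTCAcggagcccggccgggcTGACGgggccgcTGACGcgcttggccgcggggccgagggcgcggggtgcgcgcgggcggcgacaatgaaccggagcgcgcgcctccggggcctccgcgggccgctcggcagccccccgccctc
Nr4a3: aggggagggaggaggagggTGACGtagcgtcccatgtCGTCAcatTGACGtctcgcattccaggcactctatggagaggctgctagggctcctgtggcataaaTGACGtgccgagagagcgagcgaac

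Each promoter held 4 such cores within 250 bases of its start. Of all 27025 RefSeq promoters searched over the same length, 17.9% held at least 1 core and 0.152% held 4 or more. These promoters were not matched for GC content, which was 74.4% in the Nr4a1 sequence, 80% in that of Nr4a2 and 59.4% in that of Nr4a3. In Nr4a1 the cores began at positions −233, −213, −69 and −40 from the start site, all on the strand opposite to the gene. Those of Nr4a2 began at −200, −144, −123 and −111, and those of Nr4a3 at −231, −213, −205 and −147. The Nr4a3 core at −147 lies inside the outermost annotated transcript. The full palindrome TGACGTCA, which would count as 2 overlapping cores, was in none of the 3 windows and in 1.62% of all promoters. The NBRE element AAAGGTCA was in none of the 3 and in 1.31% of all promoters, and the AP-1 element TGANTCA was in none of the 3 and in 6.87%. The Sp/KLF box GGGCGG was in all 3, with 3 matches in Nr4a1, 4 in Nr4a2 and 1 in Nr4a3, and in 32.9% of all promoters. The EBF core CCCNNGGG was in that of Nr4a1 alone and in 11.7%, the MEF2 site in that of Nr4a2 alone and in 3.01%, and the CArG box in none of the 3 and in 1.4%. All 8 motifs were searched on both strands. A match describes letters and not a bound factor.

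A stretch of the peak at the Nr4a1 start site and the centre of the Nr4a3 peak before the start site are shown for a further element, the MEF2 site, in capitals. The stretch of Nr4a1 is chr15:101266532-101266605 on the plus strand and the centre of the Nr4a3 peak of inguinal fat is chr4:48043096-48043395 on the plus strand.
Nr4a1: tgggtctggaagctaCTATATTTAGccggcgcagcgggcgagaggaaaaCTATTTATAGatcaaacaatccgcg
Nr4a3: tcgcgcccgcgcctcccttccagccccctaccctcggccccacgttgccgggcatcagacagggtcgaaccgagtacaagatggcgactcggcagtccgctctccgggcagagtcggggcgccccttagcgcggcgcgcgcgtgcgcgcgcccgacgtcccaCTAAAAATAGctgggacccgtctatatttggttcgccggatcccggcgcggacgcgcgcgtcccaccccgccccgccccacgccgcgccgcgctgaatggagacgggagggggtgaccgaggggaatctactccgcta

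MEF2 sites stood in the central 300 bases of 3 of the 15 NR4A peaks in brown fat, where 2.48% of all peaks held one. They stood in 3 of the 11 in inguinal fat, where 1.62% of all peaks did. In both tissues these were the Nr4a1 peak at the start site, with 2 sites, the Nr4a1 peak near the upstream start and the Nr4a3 peak before the start site. The TGACG core was in the centres of 6 of 15 brown fat peaks (15.2% of all peaks) and of 7 of 11 inguinal peaks (17.5%). AP-1 was in 0 and 1 of them, against 8.72% and 10.6% of all peaks, and NBRE in none of them, against 2.64% and 1.71%. The EBF core was in 7 of 15 and 4 of 11 (18.7% and 18.3% of all peaks) and the Sp/KLF box in 7 of 15 and 6 of 11 (20.7% and 28.9%). The full palindrome and the CArG box were in none of the NR4A peak centres of either tissue, against 0.693% and 1.36% of all brown fat peaks and 0.966% and 1.25% of all inguinal peaks. The same loci stand behind both tissues' peaks, so these counts are not independent of each other.

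Values are normalized reads, meaning the read number of a peak over the size factor of its library, and the tables were normalized separately, so levels are not compared between the tissues. Distances are those of a peak's midpoint from the RefSeq start site, with positive values in the direction of transcription. Brown fat samples held 6336670 to 27500738 reads in peaks and inguinal samples 4066720 to 6691161. The NR4A peaks held 11 to 2633 reads per sample in brown fat and 39 to 772 in inguinal fat. Smarcd1, the targeted gene, had a peak in its gene body, 2030 bp after the start, that held 136, 201 and 185 normalized reads in the flox mice and 23.7, 57.9 and 26.9 in the AKO mice of brown fat. The groups did not overlap (log2 fold change −2.98, SE 0.27, adjusted p = 0.269 in limma, 4.0e-11 in DESeq2 and 0.0018 in edgeR). This fit held the covariate described below, and without that covariate the log2 fold change was −2.33. No peak of the inguinal table covered that place. Smarcd1 and Nr4a1 lie 1564559 bp apart on chromosome 15, and both genotypes carried the floxed locus. Libraries of 1 genotype differed by 2.05 to 9.39 times the squared difference that counting noise gives, so none was a copy of another. In brown fat, flox replicate 1 and AKO replicate 2 stood apart: on the first principal component (PC1), which held 55.6% of the variance, their scores were −98.2 and 112, and the other 4 lay between −41.8 and 14.6. In inguinal fat PC1 held 33.8% of the variance and separated the genotypes.

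At the start site of Nr4a1 (chr15:101266073-101267222, covering the first exon of the RefSeq transcript), flox brown fat held 1376, 627 and 741 normalized reads and AKO brown fat 634, 380.5 and 594. Flox replicate 1 was the highest and AKO replicate 2 the lowest, and the remaining flox and AKO samples overlapped. The means were 915 ± 403 and 536 ± 136 (SD, n = 3). PC1 was a covariate of the brown fat fits, after the study's methods. In this fit the log2 fold change was −0.12 (SE 0.29, adjusted p = 0.919 in limma).

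The Nr4a1 peak at −20410 bp, outside any annotated gene, held 1227, 769 and 746 normalized reads in flox and 768, 527 and 778 in AKO mice. Its log2 fold change was 0.09 (SE 0.20, limma adjusted p = 0.918). Per kilobase of peak its flox mean was 979 ± 291 normalized reads, beside 795 ± 351 at the start site, a difference within the spread between mice. The peak at −12797 bp ended just before the upstream annotated start of Nr4a1. It held 287, 132 and 116 normalized reads in flox and 163, 104 and 168 in AKO, with overlapping groups, and had the smallest p of the 15 brown fat peaks (log2 fold change 0.50, SE 0.27, unadjusted p = 0.0981, adjusted p = 0.615 in limma). Its AKO mean of 145 lay below the flox mean of 179, and without PC1 its log2 fold change was −0.21. The peak in the intron at −6295 bp had means of 716 ± 236 in flox and 529 ± 96.6 in AKO (SD, n = 3). Its log2 fold change was 0.02 (SE 0.24).

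At the Nr4a2 start site (chr2:57123437-57124471) the flox values were 652, 428 and 366 normalized reads and the AKO values 437, 448 and 478. The AKO mice lay inside the flox range (log2 fold change 0.25, SE 0.25, limma adjusted p = 0.797). A broad peak in the gene body, 7873 bp past the start and over an internal annotated start (chr2:57114465-57117795), carried the most reads of this gene, with 1171, 861 and 1023 in flox and 874, 790.0 and 766 in AKO. Its groups overlapped by AKO replicate 1 alone (log2 fold change −0.23, SE 0.21, unadjusted p = 0.323, adjusted p = 0.777 in limma), and this was the smallest p of the Nr4a2 peaks. Past the 3′ end of the gene, the peak at 20778 bp had means of 414 ± 16.9 and 394 ± 52.0 (log2 fold change −0.20, SE 0.19). The peak farthest out, at 83589 bp, held 482, 473 and 511 in flox and 463, 267 and 442 in AKO. All 3 AKO values lay under all 3 flox values there, and the fitted log2 fold change was −0.07 (SE 0.25, limma adjusted p = 0.954). AKO replicate 2, the lowest sample, also had the PC1 score farthest from 0.

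At Nr4a3 the strongest signal stood just before the gene. The peak at −2066 bp (chr4:48042812-48043667, in no annotated transcript) held 1203, 803 and 780.0 normalized reads in the flox mice and 840.2, 608 and 922 in the AKO mice. Flox replicate 1 was the highest and AKO replicate 2 the lowest, while the other 2 AKO mice lay above the other 2 flox mice (log2 fold change 0.20, SE 0.20, unadjusted p = 0.341, adjusted p = 0.785 in limma). The peak over the outermost start site (chr4:48044454-48045220, which ends before the RefSeq start) held 1062, 665 and 625 in flox and 674, 417 and 644 in AKO (log2 fold change 0.11, SE 0.20, limma adjusted p = 0.887). The other 5 Nr4a3 peaks were weaker, with flox means from 19.4 to 217 normalized reads and log2 fold changes from −0.10 to 0.28. Of these, the exonic peak at 6636 bp was higher in every AKO mouse, with 81.5, 67.2 and 82.8 in flox and 93.8, 106 and 84.4 in AKO (log2 fold change 0.19, SE 0.21, limma adjusted p = 0.813).

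**Figure D1:**
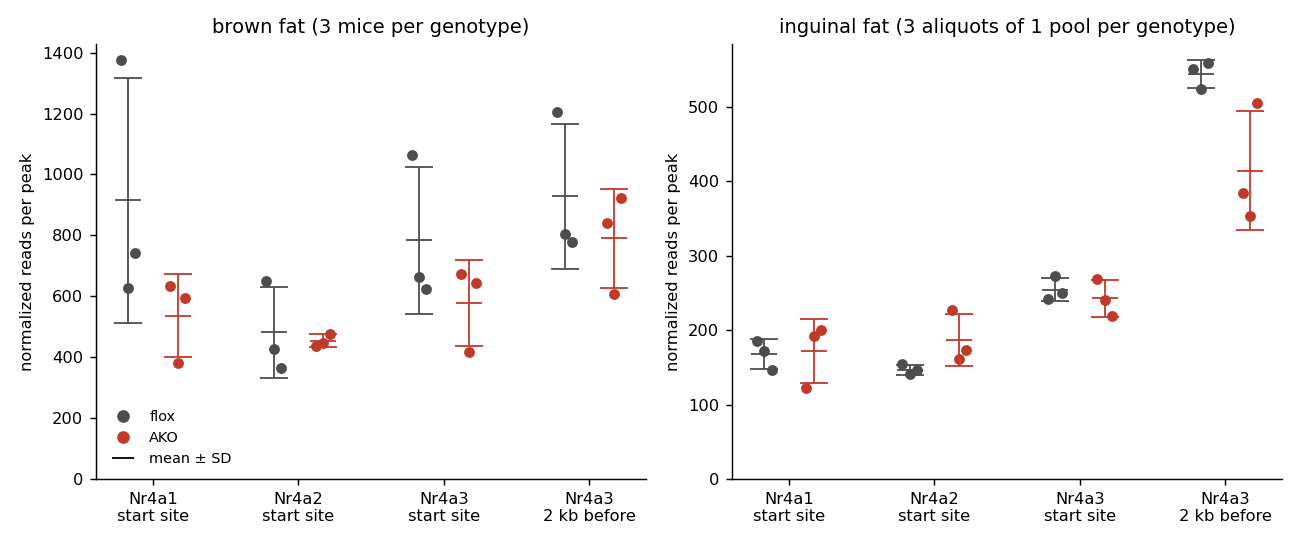
Normalized reads (y axis, from 0) in the start-site peaks of Nr4a1, Nr4a2 and Nr4a3 and in the Nr4a3 peak before the start site, for brown fat (left, 1 point per mouse) and inguinal fat (right, 1 point per aliquot of a pool), with bars for the mean ± SD of 3 samples and separate y scales. In brown fat 1 flox mouse stands above the rest at each of the 4 peaks, at 1376, 652, 1062 and 1203, and in inguinal fat the AKO points lie below the flox points at the Nr4a3 peak before the start site and above them at the Nr4a2 start site.

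None of the 15 NR4A peaks of brown fat passed an adjusted p of 0.1 in limma, where 0% of all 58558 peaks did. None passed an unadjusted p of 0.05 either, where 5.59% of all peaks fell and 3.46% rose. DESeq2 and edgeR on the recovered reads also called 0 of the 15, with 0.408% and 0.135% of all peaks called, and DESeq2 gave 3 weak Nr4a3 peaks no adjusted p. In simulated data with planted log2 changes of 1 or 2 in size, limma recovered 99 of 200 changed peaks of the brown fat table. Of these, 95 had the larger change, and DESeq2 recovered 170 of the 200. Changes as small as those of the NR4A peaks were not simulated. Changes were planted only in peaks above a minimum mean, which the Nr4a3 peaks at −96933, −11053, 6636 and 26892 bp did not reach. The log2 fold changes ran from −0.23 to 0.50, with 5 below and 10 above 0 and a median of 0.11 beside 0.01 over all peaks. By raw values, 1 peak (Nr4a2 at 83589 bp) was lower in all AKO mice and 1 (Nr4a3 at 6636 bp) higher, or 1 of 15 each way, beside 8.84% and 8.77% of all peaks.

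**Figure D2:**
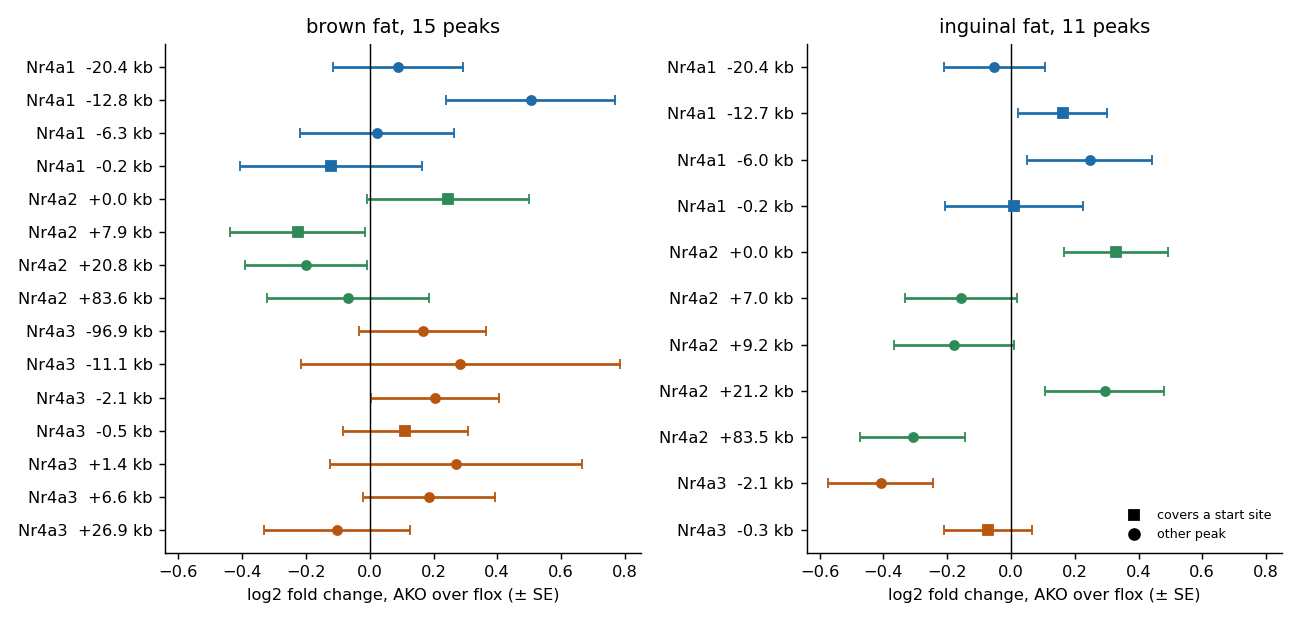
Log2 fold change of AKO over flox (x axis, points, with bars for ± SE of the limma fit) for each NR4A peak, named by gene and by distance from the RefSeq start site in kb (y axis), in brown fat (left, 15 peaks) and inguinal fat (right, 11 peaks), with squares for peaks over an annotated start site. Most bars of brown fat reach or cross 0, and several of inguinal fat do not. The values span −0.23 to 0.50 in brown fat and −0.41 to 0.33 in inguinal fat, and the Nr4a3 peak before the start site is the lowest in inguinal fat.

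The sign of the brown fat values depended on the PC1 covariate. PC1 was partly aligned with genotype, with scores of −98.2, −41.8 and 14.6 in flox and −0.617, 112 and 13.5 in AKO mice. A fit with PC1 can therefore also take up part of a genotype difference, and how much was not tested. Without it, 12 of the 15 log2 fold changes were below 0 and their median was −0.32, beside −0.01 over all peaks, and 7 peaks changed sign. At Nr4a1 the start-site value became −0.72 (SE 0.33, unadjusted p = 0.0566, adjusted p = 0.426 in limma) and all 4 peaks were below 0. Without PC1 and without flox replicate 1 together, a setting added after the values were seen, the median was −0.15 and the Nr4a1 start-site value −0.38 (limma adjusted p = 0.823). The weak Nr4a3 peaks at −96933, −11053 and 6636 bp stayed above 0 without PC1.

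**Figure D3:**
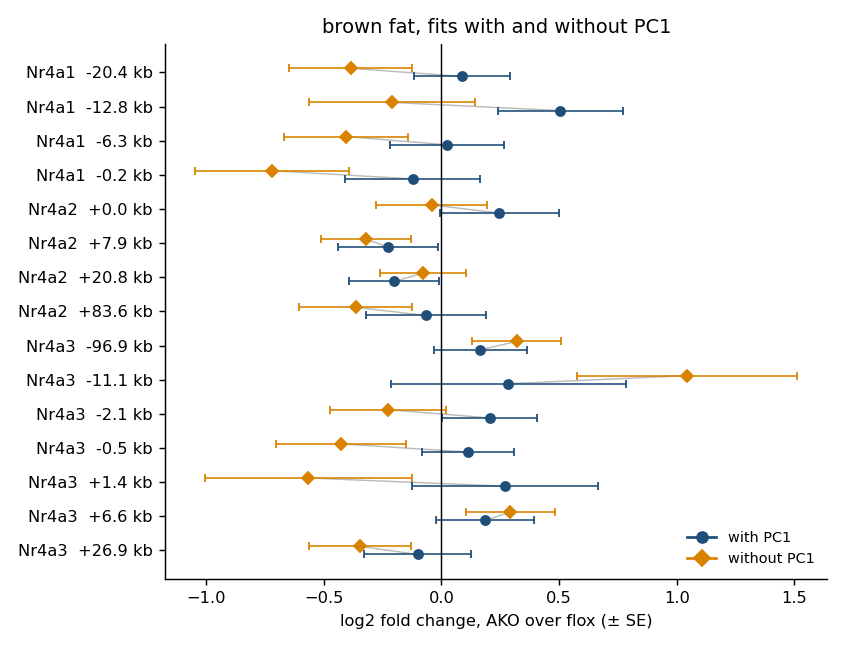
Log2 fold change of AKO over flox in brown fat (x axis, bars for ± SE) for the 15 NR4A peaks (y axis, gene and distance from the RefSeq start site in kb) in the limma fit with PC1 as a covariate (circles) and without it (diamonds). The 4 Nr4a1 peaks and the Nr4a3 peaks at −2066, −468 and 1440 bp move down and lie below 0 when PC1 is left out. Of these, the Nr4a1 start-site peak was already below 0 with PC1 (−0.12). The median of all 15 peaks goes from 0.11 to −0.32.

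Summed over its 4 peaks, Nr4a1 held 3877, 2082 and 2211 normalized reads in flox brown fat and 2187, 1441 and 2076 in AKO. These sums carry no covariate, and their mean log2 difference was −0.48 (two-sided exact permutation p = 0.2, where 3 against 3 samples cannot go below 0.1). Without flox replicate 1 it was −0.20 (exact permutation p = 0.6). Nr4a2 summed to 2732, 2156 and 2321 in flox and 2118, 1953 and 2076 in AKO, so that every AKO mouse lay below every flox mouse (mean log2 difference −0.22, exact permutation p = 0.1, the smallest possible). The gap between the lowest flox and the highest AKO sum was small, and without flox replicate 1 the difference was −0.13. The share of all genes whose sums separate the genotypes was not computed. Nr4a3 summed to 2807, 1763 and 1761 in flox and 1965, 1346 and 1867 in AKO (−0.27, exact permutation p = 0.6, and −0.05 without flox replicate 1, p = 1).

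The mice of brown fat differed in their total NR4A signal. All 15 peaks together held 9415, 6002 and 6292 normalized reads in flox and 6270, 4740 and 6020 in AKO mice, and flox replicate 1 was the highest of the 6 mice at 10 of the 15 peaks (66.7%, beside 25.4% of all peaks and 49.4% of all 11430 start-site peaks). AKO replicate 2 was the lowest at 9 of 15 (60%, beside 28.9% and 51.1%). Both were extremes at all 4 peaks of Nr4a1. The start-site peaks of the immediate-early genes had the same extremes, with 23420 summed normalized reads in flox replicate 1, 13995 in AKO replicate 2 and 18586 to 19279 in the other 4 mice. Reads in all start-site peaks made up 45.2% of flox replicate 1 and 39.3% of AKO replicate 2, beside 41.2% to 44.7% in the other mice, and these were also the libraries of most and fewest reads, 27500738 and 6336670. The part of library depth and of this general shift in the NR4A values was not tested.

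**Figure D4:**
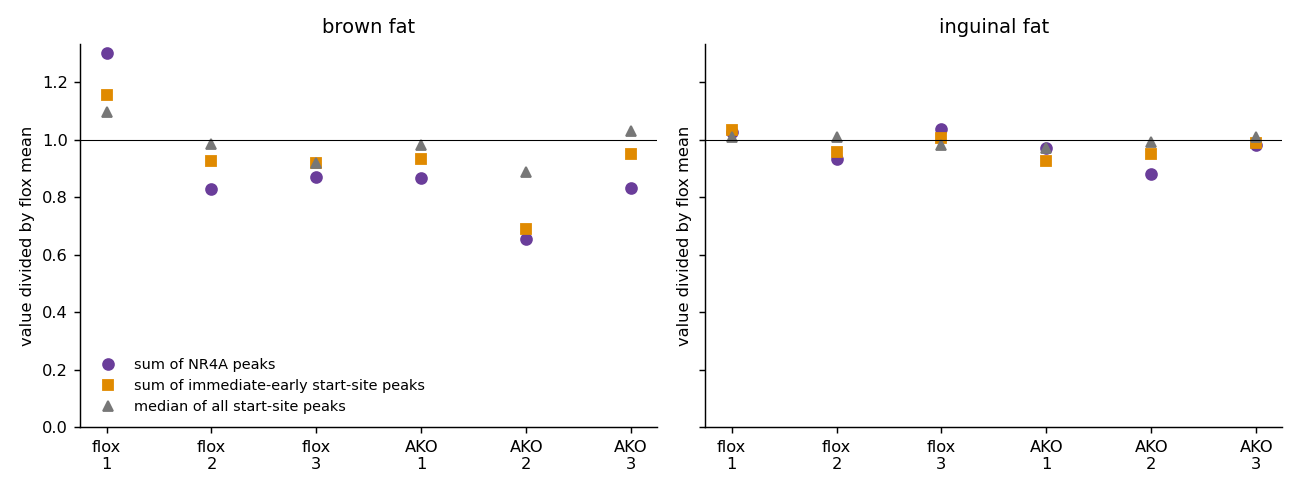
Sum of the NR4A peaks (circles), sum of the start-site peaks of 23 immediate-early genes (squares) and median of all start-site peaks (triangles) in each sample (x axis), each divided by its mean over the 3 flox samples (y axis, from 0). In brown fat (left) flox replicate 1 is the highest and AKO replicate 2 the lowest by all 3 measures, most of all by the NR4A sum, and in inguinal fat (right) the samples lie close together.

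Over the 6 brown fat mice, the start-site peaks of Nr4a1 and Nr4a3 varied together (Pearson r = 0.97 on log2 values), and less so with that of Nr4a2 (r = 0.61 and 0.66). The start-site peaks most like that of Nr4a1 were those of Ddx10 (r = 0.997), Rhbdf2 (0.996) and Junb (0.995), a member of the AP-1 family and itself an immediate-early gene. Those most like Nr4a2 were at Simc1 (0.992), Ambra1 (0.986) and Zmynd11 (0.983), and those most like Nr4a3 at Mbd1 (0.998), C1galt1 (0.997) and Carhsp1 (0.997). The 6 points also share the differences in library described above, and such values were common. Of 11238 start-site peaks, 8.33% had r over 0.9 with Nr4a1 and 20.7% with Nr4a3, and 1.23% of 11237 did with Nr4a2.

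In inguinal fat of cold-acclimated mice the Nr4a3 peak at −2059 bp (chr4:48042816-48043676), whose centre is printed above with its MEF2 site, had the largest difference of the NR4A genes in this tissue. It held 550.3, 524 and 559 normalized reads in the flox aliquots and 385, 354 and 505 in the AKO aliquots. Every AKO aliquot was below every flox aliquot, by little in AKO replicate 3. The log2 fold change was −0.41 (SE 0.16, unadjusted p = 0.0405, adjusted p = 0.308 in limma), which did not pass the threshold. DESeq2 on the recovered reads did call the peak (−0.39, SE 0.12, adjusted p = 0.0837), as did edgeR (−0.39, adjusted p = 0.0128). Leaving out an aliquot in turn gave limma values from −0.56 to −0.30. Without flox replicate 1, flox replicate 2 or AKO replicate 1, 0 inguinal NR4A peaks had an unadjusted limma p under 0.05. Without any of the other aliquots 1 or 2 did. With the replicate number as a block the count was also 0. The peak ranked at the 98.1 percentile of all inguinal peaks by its flox mean and at the 95.9 percentile by its AKO mean, so it stayed among the strongest. The start-site peak next to it (chr4:48044567-48045429) held 242, 272 and 250.5 in flox and 269, 241 and 219 in AKO, with overlapping groups (log2 fold change −0.07, SE 0.14, limma adjusted p = 0.845). Within a library, the upstream peak held 2.28, 1.92 and 2.23 times the reads of the start-site peak in flox and 1.43, 1.47 and 2.30 times in AKO. By this ratio AKO replicate 3 lay just above the flox range and the other AKO replicates below it, so the genotypes overlapped. The summed signal of both peaks was 792, 796 and 809 in flox and 654, 595 and 724 in AKO (mean log2 difference −0.29, exact permutation p = 0.1, the smallest possible). The share of all genes with separated sums was not computed for this tissue either.

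At the Nr4a2 start site of inguinal fat the AKO values were the higher ones. The peak at chr2:57123540-57124413 held 155, 141 and 146 normalized reads in flox and 227, 161 and 174 in AKO, with every AKO aliquot above the flox range. The log2 fold change was 0.33 (SE 0.16, unadjusted p = 0.0810, adjusted p = 0.394 in limma), and neither DESeq2 (adjusted p = 0.371) nor edgeR (adjusted p = 0.176) called it. Without AKO replicate 1 the value was 0.18. The gene-body peak at 7015 bp held 218, 169 and 222 in flox and 214, 170.1 and 161 in AKO (log2 fold change −0.16, SE 0.18, limma adjusted p = 0.715). The log2 fold change was 0.29 at 21218 bp, with the sign of the start site, and −0.18 and −0.31 at 9173 and 83493 bp. Relative to the start-site peak of the same library, the peaks at 7015, 9173 and 83493 bp were each lower in every AKO aliquot than in every flox aliquot, while that at 21218 bp overlapped. These ratios share a denominator that was itself higher in every AKO aliquot, so they are not separate results. The share of such ratios over all peaks was not computed. At 7015 bp the ratios were 1.41, 1.197 and 1.52 in flox and 0.944, 1.06 and 0.926 in AKO. The sum over the 5 peaks did not separate the genotypes (557 ± 50.1 in flox and 564 ± 58.7 in AKO, SD, n = 3, mean log2 difference 0.02, exact permutation p = 1). In brown fat, ratios to the start-site peak were higher in every AKO mouse for the Nr4a1 peaks at −12797 and −6295 bp. At −6295 bp they were 0.717, 0.883 and 0.818 in flox and 0.980, 1.13 and 0.903 in AKO. All other such ratios of NR4A peaks overlapped in both tissues.

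The differences at Nr4a1 were within the spread of the aliquots. Its start-site peak (chr15:101266266-101266962) held 186, 172 and 146 normalized reads in flox and 123, 193 and 201 in AKO (log2 fold change 0.01, SE 0.22, limma adjusted p = 0.989). The peak at −12729 bp, which in this tissue reached over the upstream annotated start, held 70.6, 76.7 and 81.8 in flox and 83.0, 78.8 and 95.2 in AKO (0.16, SE 0.14, limma adjusted p = 0.626). The strongest Nr4a1 peak, at −20393 bp, held 371, 295 and 392.5 in flox and 348, 306 and 361 in AKO (−0.05, SE 0.16, limma adjusted p = 0.908). The smallest p of this gene was at −6033 bp, with 130.4, 97.8 and 129 in flox and 176, 122 and 128 in AKO (0.25, SE 0.20, unadjusted p = 0.246, adjusted p = 0.594 in limma). The summed signal was 716 ± 64.9 in flox and 739 ± 43.6 in AKO (SD, n = 3, mean log2 difference 0.05, exact permutation p = 0.7).

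Of the 11 inguinal NR4A peaks, limma called 0 at an adjusted p of 0.1, where 0% of all 39558 peaks passed. At an unadjusted p of 0.05, 1 of 11 fell and 0 rose, beside 7.42% and 7.61% of all peaks. DESeq2 called 1 and edgeR 1, the Nr4a3 peak at −2059 bp in both cases, beside 1.18% and 4.68% of all peaks. The genotypes did not overlap at 1 peak with AKO lower and at 1 with AKO higher, beside 10.3% and 10.6% of all peaks, so the share of the members was near that of the table. The log2 fold changes ran from −0.41 to 0.33 with a median of −0.05, beside 0.00 over all peaks (6 below and 5 above 0).

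**Figure D5:**
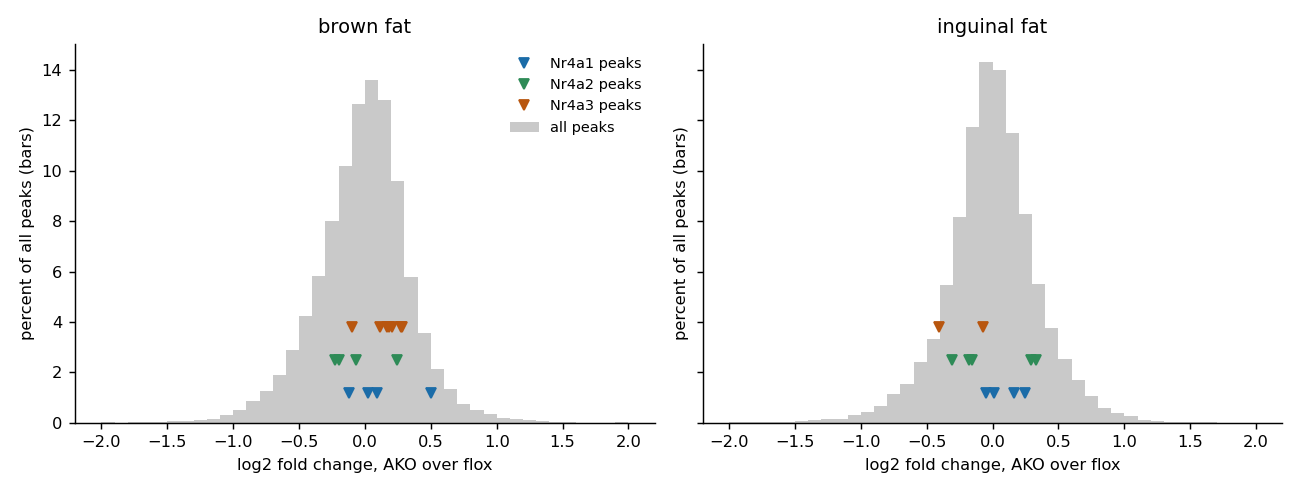
Distribution of the limma log2 fold change of AKO over flox (x axis, values beyond ±2 in the end bins) over all peaks of each table (grey bars, y axis in percent of peaks) with the NR4A peaks as triangles, whose height only separates the 3 genes. The NR4A peaks of brown fat (left, −0.23 to 0.50) and of inguinal fat (right, −0.41 to 0.33) lie inside the bulk of all peaks.

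All 11 inguinal peaks overlapped a brown fat peak of the same gene by at least 309 bp, in 11 pairs that cover 10 of the 15 brown fat peaks. The 5 brown fat peaks without a partner all belonged to Nr4a3 and were its weaker ones, with means of 28.0 to 183 normalized reads over the 6 mice. Brown fat libraries held 6336670 to 27500738 reads in peaks and inguinal ones 4066720 to 6691161. The part of depth in the presence of these 5 peaks was not tested. Set side by side, the Nr4a3 peak before the start site had a log2 fold change of 0.20 in brown fat and −0.41 in inguinal fat, and the Nr4a2 start-site peak 0.25 and 0.33. The difference between the tissues was not tested, as the tables were normalized separately and the inguinal samples are aliquots.

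Per kilobase of peak, the start-site peaks of flox brown fat followed the order Nr4a3 (1022 ± 315 normalized reads), Nr4a1 (795 ± 351), Nr4a2 (466 ± 145) and the internal start of Nr4a2 (306 ± 46.6; SD, n = 3). The ranges of neighbours overlapped except between the last pair. AKO brown fat had the same order, at 754 ± 183, 466 ± 118, 439 ± 20.3 and 243 ± 17.1, again with only the last pair apart. In flox inguinal fat Nr4a3 (295 ± 18.3) stood above Nr4a1 at the RefSeq start (241 ± 28.9) and at the upstream start (229 ± 16.8), whose ranges overlapped, and Nr4a2 (169 ± 7.79) was the lowest without overlap. In AKO inguinal fat the values were 281 ± 28.7, 247 ± 61.3, 256 ± 25.5 and 214 ± 40.0, and all neighbours overlapped.

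The signal chain that feeds these genes was read from a list of 21 genes for β-adrenergic receptors, protein kinase A, CREB with its coactivators and MEF2 factors, all of which had peaks in both tissues. In limma 0 of its 143 brown fat peaks and 0 of its 73 inguinal peaks were called. At an unadjusted p of 0.05, 9 were lower and 5 higher in brown fat, beside 5.59% and 3.46% of all peaks, and 7 were lower and 5 higher in inguinal fat, beside 7.42% and 7.61%. DESeq2 called 2 falling peaks in brown fat and 1 in inguinal fat, beside 0.408% and 1.18% of all peaks in either direction, and edgeR 0 and 2, beside 0.135% and 4.68%. The median log2 fold changes were −0.04 and −0.00, and that of brown fat was −0.15 without PC1. The smallest p in brown fat was at a peak of Gnas, which encodes the G protein subunit that stimulates cyclic AMP production (chr2:174345679-174346327). It held 133, 177 and 234 normalized reads in flox and 118, 166 and 102 in AKO, with overlap (log2 fold change −1.01, SE 0.19, unadjusted p = 0.00117, adjusted p = 0.417 in limma and 0.0590 in DESeq2), and −0.49 without PC1. In inguinal fat it was at Crebbp, the CREB coactivator CBP (chr16:4160741-4161119), with 32.8, 38.9 and 45.6 in flox and 20.7, 17.1 and 21.4 in AKO and no overlap (log2 fold change −0.94, SE 0.17, adjusted p = 0.149 in limma, 0.213 in DESeq2 and 0.0914 in edgeR).

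Among 23 other immediate-early genes, which like the NR4A genes answer signals within minutes, limma called 0 of 170 brown fat peaks and 0 of 132 inguinal peaks. Unadjusted, 7 were lower and 3 higher in brown fat (5.59% and 3.46% of all peaks) and 8 lower and 7 higher in inguinal fat (7.42% and 7.61%). DESeq2 called 0 in brown fat and 1 falling peak in inguinal fat (0.408% and 1.18% of all peaks). With edgeR 0 were called in brown fat, and 2 falling and 4 rising peaks in inguinal fat (0.135% and 4.68%). The medians were 0.05 and 0.02. Without PC1 the brown fat median was −0.09, with 108 of the 170 peaks below 0 beside 78 with it. The smallest p in brown fat was at a peak of Dusp1, a phosphatase that ends MAP kinase signals, with 63.2, 85.7 and 84.1 in flox and 48.5, 65.7 and 48.9 in AKO (log2 fold change −0.83, SE 0.19, limma adjusted p = 0.436). In inguinal fat it was at a peak of Jun, the AP-1 subunit, which was higher in every AKO aliquot (56.3, 60.0 and 46.5 in flox, 88.8, 95.9 and 80.2 in AKO). Its log2 fold change was 0.70 (SE 0.15, adjusted p = 0.151 in limma, 0.134 in DESeq2 and 0.0497 in edgeR).

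Of 10 genes for retinoid X receptors and corepressors that work with NR4A proteins, 9 had peaks in brown fat (not Rxrb) and all 10 in inguinal fat. In limma 0 of 80 and 0 of 65 peaks were called. Unadjusted, 2 were lower and 4 higher in brown fat (5.59% and 3.46% of all peaks) and 4 lower and 6 higher in inguinal fat (7.42% and 7.61%). DESeq2 called 0 and 1 (0.408% and 1.18% of all peaks), and edgeR 0 and 2 (0.135% and 4.68%), all falling. The medians were 0.11 and 0.07, and that of brown fat was 0.02 without PC1. The smallest p was at Nrip1, the corepressor RIP140, in brown fat (65.3, 88.7 and 107 in flox, 63.9, 122 and 71.0 in AKO, log2 fold change −0.66, SE 0.18, limma adjusted p = 0.449, and −0.06 without PC1). In inguinal fat it was at the start-site peak of Rxrg (44.9, 46.7 and 58.5 in flox, 68.0, 69.6 and 78.1 in AKO, 0.52, SE 0.15, limma adjusted p = 0.203).

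The NR4A genes are also used by macrophages, endothelial cells and other cells of fat, and in whole tissue a change in the number of cells of a type and a change in openness per cell cannot be told apart. In brown fat all 7 adipocyte markers and all 7 brown adipocyte markers had peaks, and their summed signal was lower in every AKO mouse: 21439 to 23591 normalized reads in flox and 15593 to 20694 in AKO for adipocytes, and 22041 to 25921 and 14717 to 16052 for brown adipocytes. Of the other 8 lists, none separated the genotypes of brown fat. Macrophages had 3 of 7 markers with a peak (201 to 317 normalized reads in flox, 218 to 272 in AKO) and none for Cd68, Csf1r, Lyz2 or Itgam, and lymphocytes had 1 of 7. Endothelial cells had 7 of 7 (2863 to 3087 and 2911 to 3500) and fibroblasts 7 of 7 (3245 to 3386 and 3085 to 3258). In inguinal fat the adipocyte sums overlapped (3120 to 4120 and 3488 to 3830), with 7 of 7 markers, as did those of brown adipocytes with 6 of 7 (1384 to 1523 and 1449 to 1570). The endothelial list, with 5 of 7, was lower in AKO (877 to 964 and 730 to 849) and the mural list, with 5 of 6, higher (1206 to 1285 and 1287 to 1338), while macrophages, with 3 of 7, overlapped (185 to 227 and 143 to 202). The part of these shifts in the values of the Nr4a2 and Nr4a3 peaks was not tested.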

How the data were processed

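ATAC-seq libraries of brown fat and cold-acclimated inguinal fat, 12 samples in all, were analysed as 2 peak tables. The authors trimmed adapters, mapped reads to mm10 with BWA 0.7.17-r1188, removed duplicates, called broad peaks with MACS2 2.1.1.20160309, counted reads in the union of peaks and divided them by a size factor per sample. The deposited signal values are these normalized read counts, which came out as whole reads for 100% of values within 0.01. The deposited log2 fold changes, Wald scores and p-values of the authors' own DESeq2 comparison were not used. All peaks of a table were fitted together with lmFit and eBayes of limma 3.58.1 in R 4.3.3 on log2(normalized reads + 1) for the contrast of AKO with flox, and with PC1 of all peaks as a covariate in brown fat as in the study, and Benjamini-Hochberg adjustment at 0.1. Since the values were normalized, limma was the main test, and DESeq2 1.42.0 and edgeR 4.0.16 on the recovered reads were alternatives. A fold change on this scale understates that of low peaks. Sums per gene were compared by a two-sided exact permutation test over 20 splits. Groups follow the sample titles, and 0 columns of sample values were left unused. Peak genes are those the tables give. Distances and start sites were taken from RefSeq and GENCODE vM21. The values named are those of start-site peaks, of the peak with the smallest p and of the 2 strongest peaks of each gene, and of the peak with the smallest p in each list. The brown fat peaks of Nr4a1 at −6295 bp, of Nr4a2 at 20778 and 83589 bp and the 5 weaker ones of Nr4a3, and the inguinal Nr4a2 peaks at 9173, 21218 and 83493 bp, are outside this rule, and values given for them were chosen after they were seen. The fits were tested on simulated data, and the motif search found 1000 of 1000 planted sites. Figures used matplotlib 3.10.9. The members and the gene lists were chosen with earlier results of these data known. Samples were not treated as paired by replicate number in the main fits.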

Additional observations from a re-analysis of the deposited data

How the results depend on the processing

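The exact tests on 3 against 3 samples cannot pass 0.05, and depth limits the weak Nr4a3 peaks of brown fat, with as few as 11 reads. In limma no peak of either table passed an adjusted p of 0.1 under the alternatives run, except 1 brown fat peak, that of Smarcd1 at 2030 bp, with a pseudocount of 10. At unadjusted p under 0.05 limma counted 5301 and 5943 peaks. DESeq2 called 174 peaks in brown fat and 420 in inguinal fat, and edgeR 79 and 1852, with 1 NR4A peak, Nr4a3 at −2059 bp in inguinal fat, called by each of these tools and 0 in brown fat by either. The cause of the difference between the tools was not tested.

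Scaling by TMM, the filter of 10 reads, the pseudocounts and both count tools changed no sign of an NR4A peak in either tissue. With total reads in peaks Nr4a1 at −6295 bp became −0.0091. Without PC1 the brown fat median was −0.32, and the values that changed sign were −0.39, −0.21 and −0.40 for Nr4a1 at −20410, −12797 and −6295 bp, −0.042 for Nr4a2 at 49 bp, and −0.23, −0.43 and −0.57 for Nr4a3 at −2066, −468 and 1440 bp. Without both PC1 and flox replicate 1 they were −0.15 and −0.15 for Nr4a1 at −20410 and −6295 bp and −0.024, −0.19 and −0.16 for Nr4a3 at −2066, −468 and 1440 bp. With PC1 in inguinal fat, where it separates the genotypes, the median was 0.22, and Nr4a1 at −20393 bp gave 0.77, Nr4a2 at 83493 and 21218 bp gave 1.92 and −2.54, and Nr4a3 at −2059 bp gave 1.198, with no limma adjusted p under 0.1.

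The replicate numbers are shared between the genotypes. Correlations of same-numbered samples were 0.49, 0.06 and −0.24 in brown fat and −0.04, −0.05 and −0.06 in inguinal fat. They showed no clear pairing, and so few samples cannot decide whether the numbers pair them. With the replicate number as a block, limma called 0 peaks in each table, inguinal fat kept every NR4A sign, and 7 brown fat peaks changed sign: Nr4a1 at −20410 and −6295 bp to −0.029 and −0.27, and Nr4a3 at −96933, −11053, −468, 1440 and 6636 bp to −0.036, −0.32, −0.021, −0.41 and −0.021, with a median of −0.08.

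Leaving out each sample in turn left 0 calls in limma in both tables. In brown fat, values that crossed 0 ranged from −0.034 to 0.20 for Nr4a1 at −20410 bp, from −0.15 to 0.18 at −6295 bp, from −0.37 to 0.17 at −199 bp, from −0.22 to 0.35 for Nr4a2 at 83589 bp, and for Nr4a3 from −0.16 to 1.09 at −11053 bp, −0.0047 to 0.24 at −468 bp, −0.20 to 0.72 at 1440 bp and −0.25 to 0.21 at 26892 bp. In inguinal fat they ranged from −0.18 to 0.031 for Nr4a1 at −20393 bp and from −0.12 to 0.23 at −232 bp. In brown fat, the libraries whose loss turned the sign of a peak were flox replicates 2 and 3 and AKO replicate 1. In inguinal fat they were flox replicate 3 and AKO replicates 2 and 3. The loss of inguinal flox replicate 2 or AKO replicate 1 turned the sign of a gene sum but of no peak. The mean log2 difference of the summed inguinal signal ranged from −0.030 to 0.090 for Nr4a1 and from −0.067 to 0.062 for Nr4a2, while that of the other 4 sums kept its sign under every alternative.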
